A study of Mus musculus with 2 samples.

Results

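The 4 genes described here, Ccl3, Ccl4, Ccl5 and Xcl1, encode the main chemokines made by natural killer (NK) cells. They were matched by symbol among the 31053 genes of the deposited matrices, and all 4 were found. Both libraries are droplet single-cell RNA-seq of spleen cells from C57BL/6 mice, sorted as CD27+CD11b+ NK cells. The control library came from EP3F/F mice, which carry floxed alleles of Ptger3, the gene for the prostaglandin E2 receptor EP3. The knockout library came from NKp46CreEP3F/F mice, which carry the same floxed alleles and a Cre driven by Ncr1, the gene for NKp46. Cre then acts in cells that express or have expressed NKp46, which include group 1 innate lymphoid cells as well as NK cells. Cells of 2 mice were pooled for each library, and each genotype has 1 library. No test of the genotype can be made, and every interval below is a 95% interval that covers counting error only.

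Chemokines are small secreted proteins that guide leukocytes along concentration gradients through receptors coupled to G proteins. Ccl3 and Ccl4 are close relatives that activated NK cells release quickly. Ccl5 is kept at high transcript levels in cytotoxic lymphocytes. Xcl1 is the lymphotactin gene; its receptor Xcr1 marks the dendritic cells that cross-present antigen.

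In the GRCm38 annotation, a build other than the GRCm39 named in the submitters' processing notes, 3 of the genes share a cluster on chromosome 11. Ccl5 spans 83525778 to 83530518 on the minus strand, Ccl3 spans 83647844 to 83649355 on the minus strand and Ccl4 spans 83662584 to 83664683 on the plus strand. The gap between Ccl3 and Ccl4 is 13.2 kb, and that between Ccl5 and Ccl3 is 117 kb. Xcl1 lies apart, on chromosome 1 from 164931644 to 164935527 on the minus strand. Xcl1 is overlapped by an antisense gene on the plus strand. Use of strand in counting is not given in the sources used here, and whether reads of that gene enter the Xcl1 counts was not tested. The annotation gives 3 distinct exons each for Ccl3, Ccl4 and Xcl1 and 5 for Ccl5.

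The 3 clustered genes share a signature at nearly the same place in their coding sequences. The stretches below, from the GENCODE transcripts, are centred on the adjacent pair of cysteine codons (capitals) that gives the CC chemokines their name.
Ccl3: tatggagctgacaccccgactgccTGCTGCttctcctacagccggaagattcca
Ccl4: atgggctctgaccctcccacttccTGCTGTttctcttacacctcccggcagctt
Ccl5: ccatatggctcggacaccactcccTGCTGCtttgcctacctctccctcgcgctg
The pair starts at base 100 of the coding sequence in Ccl3 and in Ccl4 and at base 97 in Ccl5. The coding sequence of Xcl1 also holds 1 pair of adjacent cysteine codons, but at base 34, and its stretch is not shown. Ccl3 and Ccl4 matched at 71.1% of 270 aligned coding bases, the highest identity among the 6 pairs. The lowest was 61.0%, for Ccl4 and Ccl5, and the pairs with Xcl1 lay between, at 62.9% to 66.8%, so identity did not set the clustered genes apart from Xcl1. The longest run of bases shared exactly by the transcripts of Ccl3 and Ccl4 was 9, so the transcripts hold no stretch of read length in common.

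The RefSeq table of start sites (GRCm38.p6) matched Ccl3 and Xcl1. Their upstream sequences are shown because these genes went opposite ways with maturation, described further on. Each is the 250 bases before the start on the minus strand, chr11:83649379-83649628 for Ccl3 and chr1:164935523-164935772 for Xcl1. Capitals mark matches, on either strand, to GGAAA (the core bound by NFAT), TGTGGT (Runx) and GGTGTGA (T-box factors such as T-bet and Eomes).
Ccl3: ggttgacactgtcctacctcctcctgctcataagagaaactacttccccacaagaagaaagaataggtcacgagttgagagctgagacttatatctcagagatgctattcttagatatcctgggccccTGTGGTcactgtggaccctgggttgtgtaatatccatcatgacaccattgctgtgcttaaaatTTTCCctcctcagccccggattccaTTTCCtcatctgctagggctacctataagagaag
Xcl1: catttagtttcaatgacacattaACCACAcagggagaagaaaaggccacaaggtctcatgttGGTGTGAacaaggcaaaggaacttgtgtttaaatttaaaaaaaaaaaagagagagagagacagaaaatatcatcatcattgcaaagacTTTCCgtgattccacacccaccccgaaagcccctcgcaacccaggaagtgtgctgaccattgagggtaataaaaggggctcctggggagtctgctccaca
GGAAA occurred at 2 places upstream of Ccl3 and at 1 place upstream of Xcl1, and 55.6% of the 32851 windows of the same length hold it. TGTGGT occurred once in each (14.1% of windows). GGTGTGA occurred once, upstream of Xcl1 (3.33% of windows). Neither window held TGANTCA (AP-1; 6.75% of windows) or TGACGTCA (CRE; 1.55%). These are matches of letters, not measured sites.

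The control library held 11785 cell barcodes with 69853026 unique molecular identifiers (UMIs, counts of distinct transcript molecules), and the knockout library 10615 barcodes with 42795121. After filters on genes per cell and mitochondrial share, 10928 control and 10023 knockout cells remained. Cells were gated on UMIs of marker genes, without any of the 4 chemokine genes. The NK gate took 10460 control cells (95.7%) and 9141 knockout cells (91.2%). Its Ncr1 level was 789.6 CPM (UMI counts scaled to a common total over the cells of each gate and library) in the control library and 818.1 CPM in the knockout. Its cells had a median of 5831 UMIs in the control library and 3832 in the knockout, so shares of cells with a UMI are given after thinning each cell to 2000 UMIs. Thinning kept 10317 control and 8948 knockout NK-gated cells, leaving out 143 and 193. Ptger3, the targeted gene, had 13 UMIs in the control and 0 in the knockout NK-gated cells. Which exons are removed is not given in the sources used here, so reads at the 3' end may not report the deletion. The libraries shared 33 barcodes, and leaving these cells out did not move any of the knockout-to-control ratios below past their counting interval.

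Ccl5 was among the most abundant transcripts of the NK gate and was found in nearly every cell. Its level was 16678 CPM in the control, 4th of the measured genes, and 21435 CPM in the knockout library, 3rd. After thinning, 99.9% of NK-gated cells in each library had at least 1 UMI. The median cell held 32 Ccl5 UMIs of its 2000 in the control library and 41 in the knockout. The middle 90% of cells ran from 12 to 63 UMIs in the control and from 16 to 81 in the knockout library. The coefficient of variation was 0.468 and 0.470, and the richest 5% of cells held 10.9% and 11.2% of all Ccl5 UMIs. Ccl5 thus had a broad spread in each library with very few negative cells: 8 thinned cells in each library lacked it.

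Ccl3, Ccl4 and Xcl1 had a different form: most cells had none and a few had many. Ccl3 stood at 195.9 CPM in the control and 122.6 CPM in the knockout NK gate. Its UMIs were found in 22.7% of thinned control cells (interval 21.9 to 23.5) and in 15.3% of thinned knockout cells (14.5 to 16). Without thinning, these shares were 42.5% and 24.9%, at the unequal depths given above. Positive cells held 1.71 and 1.61 Ccl3 UMIs on average, while the richest cell held 28 and 47 of its 2000.

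Ccl4 was the most abundant of the 3 sparse genes, at 352.6 CPM in the control and 169.5 CPM in the knockout NK gate. It was found in 28.8% of thinned control cells and 16.4% of thinned knockout cells (49.6% and 25.8% without thinning). Its richest cells held 92 and 133 of 2000 UMIs. The richest 5% of cells held 54.3% of the Ccl4 UMIs in the control library and 65.2% in the knockout. Its Fano factors (variance over mean), 11.3 and 18.5, were the highest of the 4 genes, against 3.28 and 4.46 for Ccl3 and 4.58 and 7.22 for Xcl1.

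Xcl1 was found in 27.4% of thinned control cells and 14.9% of thinned knockout cells (48.4% and 23.4% without thinning), at 290.5 and 150.5 CPM. Its richest 5% of cells held 50% and 65.2% of its UMIs, and its richest cells 46 and 65 of 2000 UMIs. Background from free RNA was read in cells of the macrophage-like, dendritic-like and B cell-like gates with at most 1 UMI of the NK marker list. These were 109 control cells, with a median of 1492 UMIs, and 241 knockout cells, with a median of 1730. Xcl1 had 0 and 1 UMIs there, Ccl3 had 3 and 2, and Ccl4 had 2 and 1, so their shares without thinning were at most 2.75%. The bound on NK marker UMIs also favours cells with little free RNA from NK cells, so these values may understate the background. Ccl5 was at 1870 CPM in these control cells and 649.5 CPM in these knockout cells, far under the NK gate but not absent. The 8.92-fold and 33.0-fold lower Ccl5 levels there differed between libraries; the part that free RNA plays in them was not tested.

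**Figure D1:**
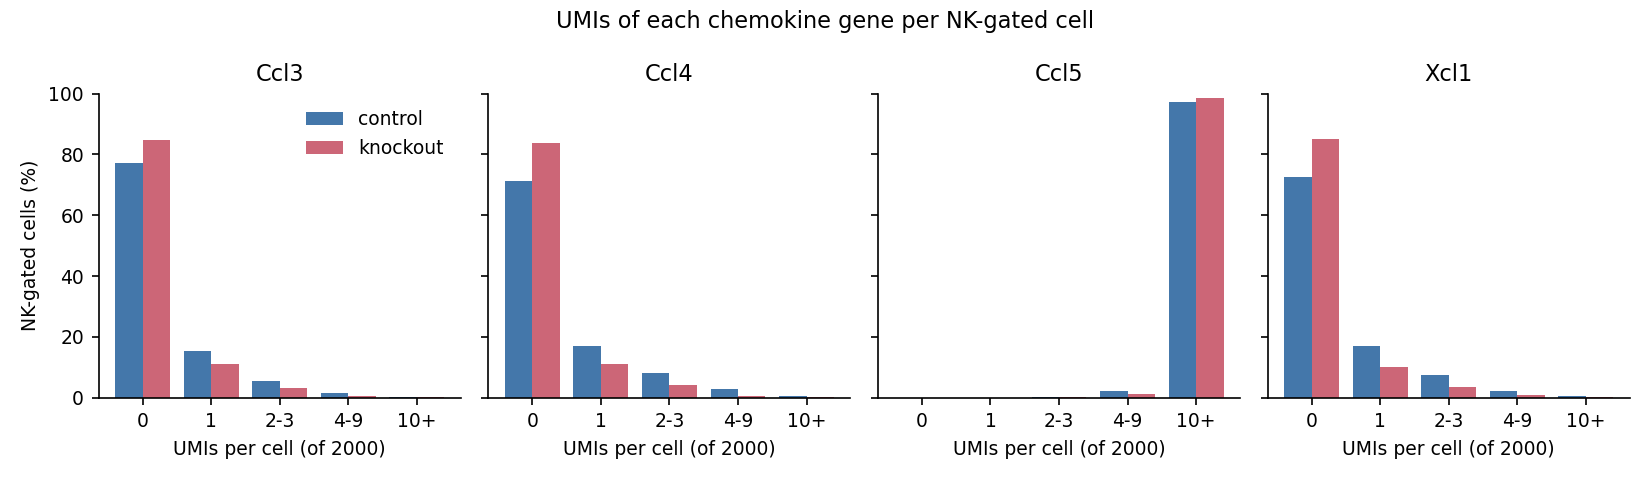
Share of NK-gated cells, in percent, by the number of UMIs of each gene in cells thinned to 2000 UMIs; blue bars are the control and red bars the knockout library. Ccl5 reaches 10 or more UMIs in 97.3% of control and 98.5% of knockout cells, while Ccl3, Ccl4 and Xcl1, each taken alone, are missing from 71.2% to 85.1% of cells.

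Summing the 3 sparse genes, 42.8% of control cells and 61.7% of knockout cells had no UMI of Ccl3, Ccl4 or Xcl1. Cells with 10 or more such UMIs of 2000 numbered 208 in the control library (2.02%, interval 1.75 to 2.31) and 62 in the knockout (0.693%, 0.532 to 0.887). The richest cells held 111 and 172 of 2000 UMIs in these genes.

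Ccl3 and Ccl4 were found together in the same cells well beyond the product of their shares. Both were present in 9.59% of control cells against a product of 6.54%, a ratio of 1.47, and in 4.24% of knockout cells against 2.5%, a ratio of 1.70. Among Ccl3-positive control cells 42.2% had Ccl4, against 24.9% of Ccl3-negative cells. In the knockout library these shares were 27.7% and 14.3%. As a yardstick, the ratio of Ccl3 with each of the 2442 other genes found in 10% to 50% of control cells had a median of 0.999, a 95th percentile of 1.08 and a highest value of 1.2. Over 2237 such genes in the knockout library the 95th percentile was 1.10 and the highest value 1.26.

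Over all NK-gated cells the ratios of Xcl1 with the CC genes were lower. Its ratio was 1.09 with Ccl3 and 1.10 with Ccl4 in control cells, and 1.02 and 1.08 in knockout cells. The 95th percentile for Xcl1 over the same genes was 1.08 in control and 1.13 in knockout cells. The gene with the highest ratio to Xcl1 was Ltb, which encodes lymphotoxin beta, at 1.52 in the control library and 1.99 in the knockout. All 3 sparse genes were present in 341 control cells (3.31%, product 1.79%) and 87 knockout cells (0.972%, product 0.373%). The ratio for Ccl3 and Ccl4 was also above 1.3 inside each maturation class, from 1.33 to 1.65 in the control and from 1.5 to 1.98 in the knockout library. In cells thinned to 3000 UMIs it was 1.35 and 1.5. Inside the classes the ratio of Xcl1 with Ccl3 ran from 1.05 to 1.17 in the control and from 1.06 to 1.43 in the knockout library, and with Ccl4 from 1.11 to 1.19 and from 1.02 to 1.33, the highest knockout values being those of the most mature class. In cells with 20 or more UMIs of the activation genes described further on, the Xcl1 pairs reached 1.34 (Ccl3) and 1.28 (Ccl4) in the control and 1.52 and 1.80 in the knockout library, against 1.38 and 1.53 for Ccl3 with Ccl4. Ccl5, present in nearly every cell, gave ratios of 0.999 to 1.001 with each of the others, which its ubiquity fixes.

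**Figure D2:**
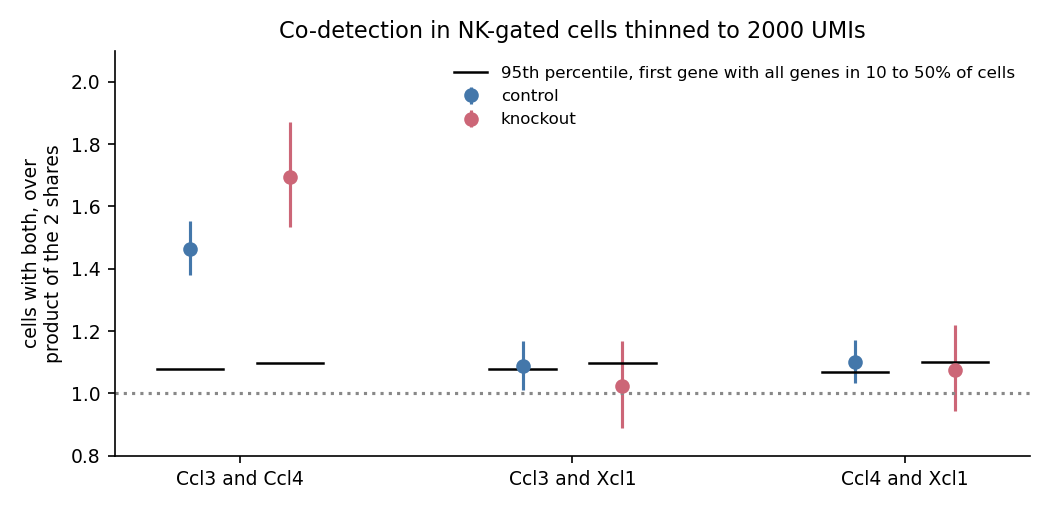
Cells with both genes of a pair, over the product of the shares of the 2 genes, in NK-gated cells thinned to 2000 UMIs; bars are the binomial interval of the share with both, and black lines the 95th percentile of the pair's first gene with all genes found in 10% to 50% of cells. Ccl3 with Ccl4 stands at 1.47 and 1.70; the pairs with Xcl1 stand between 1.02 and 1.10.

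Correlations of log(1 + UMIs) across thinned NK-gated cells, which share library and depth, gave a similar order among 2650 genes of at least 50 CPM. The lower of the 2 libraries' values was used to rank genes; the median gene was at -0.01 for each member. The gene most like Ccl3 was Ccl4 (r = 0.29 in the control library and 0.25 in the knockout), and the converse held. After Ccl4, the genes most like Ccl3 were Irf8, Xcl1, Dusp2, Ifng and Klra4, none over 0.11 in either library. After Ccl3, those most like Ccl4 were Xcl1 (0.21 and 0.16), Irf8, Ifng, Dusp2 and Ccl5.

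Ccl5 was most like Gzma, the granzyme A gene (0.26 and 0.30), followed by Nkg7, Cma1, Dusp2, Gzmb and Tyrobp. Granzymes A and B and Nkg7 belong to the cytotoxic granule machinery. Xcl1 was most like Ltb (0.17 and 0.21), followed by Ccl4, Serpina3g, Nfkbia, Icam1 and Traf1. Toward Ccl5 it ranked 2649th of the 2650 genes (-0.12 and -0.11), with only Gzma lower (-0.18 and -0.16). In sparse counts values of this size are weak, and they are given as a description.

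NK maturation in mice runs from CD27-high cells to CD11b-high, KLRG1-positive effectors, and the sort took the CD27+CD11b+ stage between. Cells were ordered by a score, the mean standardised level of 11 mature markers, such as Itgam (CD11b) and Klrg1, minus that of 10 immature markers, such as Cd27 and Emb. The cells of each library were split into 3 classes of equal size. The marker lists hold none of the 4 chemokine genes but hold Ltb and Cma1, named above. The score is continuous: 27.5% of control and 26.7% of knockout cells lay within 0.1 of a boundary, against a standard deviation of 0.57 and 0.59.

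Xcl1 was lower in the most mature than in the least mature class of both libraries. In the control its level went from 395.5 CPM in the least mature class through 272.5 to 162 CPM in the most mature, a log2 ratio of -1.29 (interval -1.39 to -1.19). In the knockout library it went from 211.2 through 142.5 to 74.6 CPM, a log2 ratio of -1.5 (-1.66 to -1.34). Its share of positive cells went from 37.6% to 18.1% and from 23.9% to 7.21%. Of 7337 measured genes, those with a mean of at least 10 CPM over the libraries, 4.44% in the control library and 6.71% in the knockout were lower in the most mature class by a log2 ratio of 0.32 (1.25-fold) or more. In that ordering 0.232% and 0.273% of them lay at or below Xcl1.

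The CC genes went the other way. Ccl3 was at 167.6, 189.9 and 224.8 CPM from the least to the most mature control class (log2 ratio 0.42, interval 0.31 to 0.53). In the knockout library it was at 75.6, 134.9 and 159.3 CPM, a log2 ratio of 1.07 (0.91 to 1.24). Ccl4 was at 270.4, 397.5 and 365.7 CPM in the control (0.44) and at 117.5, 190.2 and 184.6 CPM in the knockout library (0.65), so its middle class was the highest in both, in the knockout library within counting error of the most mature. Ccl5 was at 15376, 17149 and 19041 CPM in the control (0.31, just under the bound of 0.32) and at 18997, 21435 and 25388 CPM in the knockout library (0.42). A log2 ratio of 0.32 or more was found in 5.18% of measured genes in the control and in 5.77% in the knockout library (9.62% and 12.5% in either direction). Thus 2 of the 3 CC genes in the control library and 3 of 3 in the knockout were past it. Median depth before thinning moved with the score, from 6244 UMIs in the least mature to 5460 in the most mature control class and from 4038 to 3669 in the knockout library; its part in these differences beyond thinning was not tested.

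With the score divided into 10 steps of equal size, Ccl5 was higher in each successive step in both libraries, from 14529 to 20244 CPM in the control and from 17687 to 29031 CPM in the knockout library. Xcl1 was highest in the first step, where 45.4% of control and 32.4% of knockout cells had it, and lowest in the last, with 16% and 4.25%. In CPM the order of Xcl1 was broken at the sixth step in the control and at the fifth and seventh in the knockout library. Its share of positive cells was lower in each successive step of both libraries. In CPM Ccl4 had no steady order: its highest steps were the fifth in the control (437.5 CPM) and the seventh in the knockout library (240.8 CPM). Its share of positive cells was highest in the last step of both libraries, at 34.9% in the control and 21.8% in the knockout. In the first step that share was 21.3% and 11.4%.

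**Figure D3:**
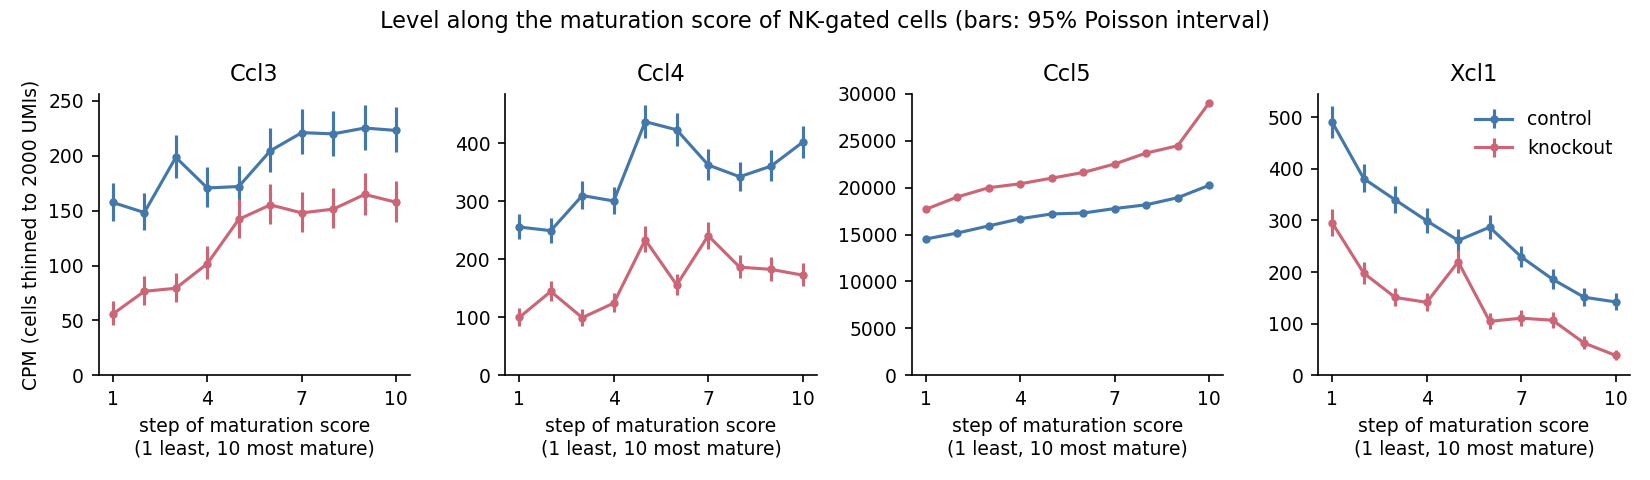
Level of each gene in CPM by step of the maturation score (1, least mature; 10, most mature) in NK-gated cells thinned to 2000 UMIs; blue is the control and red the knockout library, with Poisson intervals. Xcl1 goes from 489.8 to 142.1 CPM in the control and from 295 to 38.6 CPM in the knockout library, while Ccl5 goes up in each step.

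Other lymphocytes were few. The ILC1-like gate (at least 3 genes of an ILC1 list such as Il7r, Rora and Itga1, an NK receptor UMI and no Eomes UMI) held 45 control and 118 knockout cells. The T cell-like gate (at least 3 UMIs over 3 T cell genes such as Cd3e and Trac) held 51 and 127 cells. Both populations lie outside the sort's label. Ncr1 in the ILC1-like gate was at the NK level (log2 ratio 0.03 in the control library and 0.14 in the knockout), and in the T cell-like gate it was 6.14-fold and 9.43-fold lower. Ncr1 is among the genes that set the NK and ILC1-like gates but not the T cell-like gate, so the gating itself favours this order.

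Of the 4 chemokine genes, Xcl1 alone was higher in the ILC1-like than in the NK gate of both libraries. Its level there was 1143 CPM in the control library and 688.4 CPM in the knockout, 3.93-fold and 4.58-fold over the NK gate (log2 1.98, interval 1.81 to 2.14, and 2.19, 2.04 to 2.35). It was found in 72.7% of thinned control and 46.2% of thinned knockout ILC1-like cells. Single cells weighed on the level: the richest gave 73 of the 306 UMIs in the control library and 62 of 356 in the knockout. Without these cells the log2 ratios to the NK gate were 1.61 and 1.94. With a looser gate of 135 and 283 cells Xcl1 came to 707.9 and 467.7 CPM, log2 ratios of 1.29 and 1.66. High Xcl1 was not particular to the ILC1-like cells. In the least mature of the 10 steps of the NK gate it was at 489.8 and 295 CPM after thinning. These levels lie between the whole NK gate and the ILC1-like gate, also the looser one.

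The CC genes were at or under the NK level in the ILC1-like gate. Ccl5 was present in all of these cells at 13098 CPM and 18519 CPM, log2 ratios of -0.35 and -0.21 to the NK gate. Ccl3 was at 138.1 and 102.5 CPM (-0.50 and -0.26, the latter with an interval from -0.68 to 0.13). Ccl4 was at 253.9 and 177.9 CPM (-0.47 and 0.07). However, 35 of its 68 control UMIs and 32 of its 92 knockout UMIs came from 1 cell each, and without these cells the ratios were -1.49 and -0.54. Ccl4 was found in 11.4% and 13.7% of thinned ILC1-like cells, intervals of 3.79 to 24.6 and 8.02 to 21.3.

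In the T cell-like gate as a whole Ccl3 and Ccl4 were nearly absent, Ccl5 was lower, and Xcl1 was close to the NK level, but Xcl1 and Ccl5 lay mostly in cells that also held NK transcripts. Ccl3 had 9 UMIs in each library, 23.1 and 12.4 CPM, which was 8.47-fold and 9.90-fold under the NK gate and had intervals overlapping those of the background cells (15.6 and 3.80 CPM). Ccl4 had 7 UMIs in the control, a level 19.6-fold lower. In the knockout library it had 75 UMIs, but 63 of them came from 1 cell, and without that cell its log2 ratio to the NK gate was -3.35 in place of -0.72. Ccl5 was at 7234 and 5373 CPM (log2 ratios of -1.21 and -2.00) and was found in 74.5% and 75.2% of thinned cells, against 77.3% of 22 control and 34.5% of 84 knockout background cells of that depth. The control share of Ccl5 was thus no higher than background, while its level was higher than the 1870 CPM there. Xcl1 was at 246.8 and 159.7 CPM, log2 ratios of -0.24 (interval -0.54 to 0.05) and 0.09 (-0.19 to 0.35). Its UMIs were found in 25.5% and 19.2% of thinned T cell-like cells and in 0 of 22 control and 0 of 84 knockout background cells, which allows shares of up to 15.4% and 4.30% there. Of these Xcl1 UMIs, 95 of 96 in the control and 112 of 116 in the knockout library were in the 40 and 96 T cell-like cells with more than 1 UMI of the NK marker list (295 and 195 CPM). The 11 and 31 T cell-like cells with at most 1 such UMI had 1 and 4 Xcl1 UMIs (14.95 and 26.3 CPM). Ccl5 stood at 8576 and 6488 CPM in the former and at 777.2 and 1159 CPM in the latter. With the T cell-like gate loosened to 98 and 182 cells, control Ccl3 and Ccl4 came to 132.3 and 283.1 CPM, so their low control levels rest on the stricter gate.

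**Figure D4:**
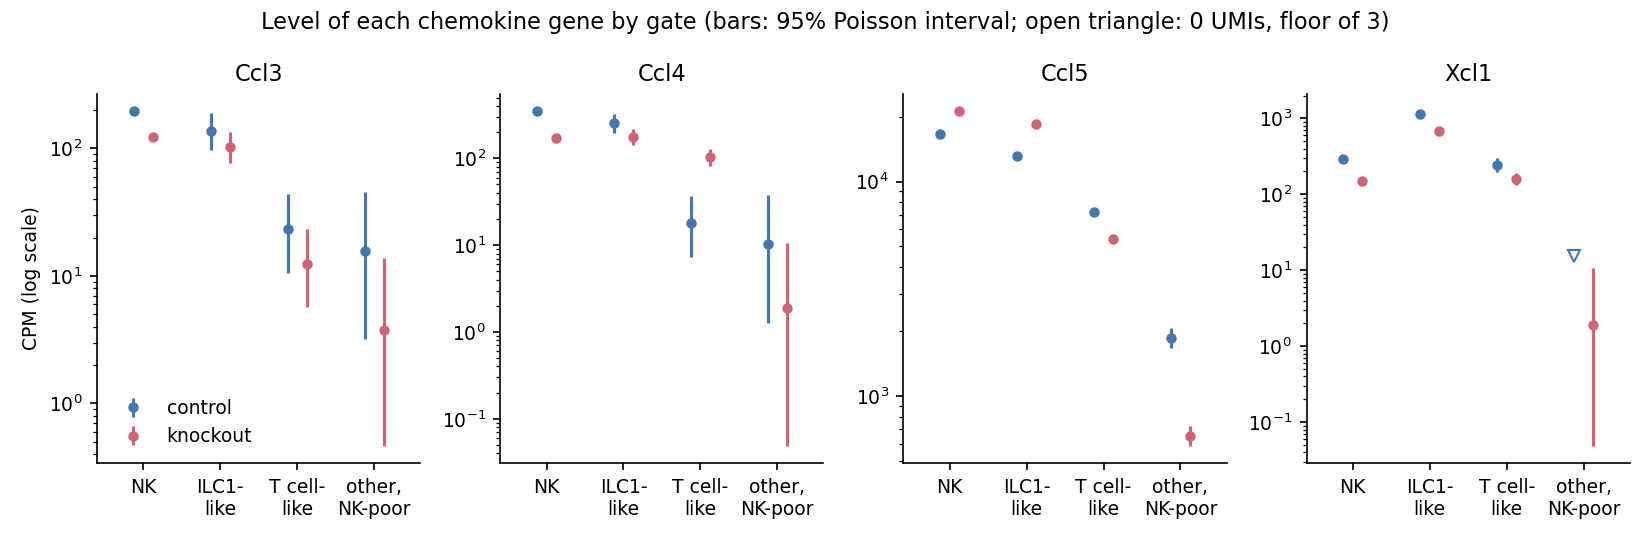
Level of each gene in CPM (log axis) in the NK, ILC1-like and T cell-like gates and in cells of the other gates with at most 1 UMI of the NK marker list; bars are Poisson intervals and the open triangle stands for 0 UMIs at the floor of 3. Xcl1 is highest in the ILC1-like gate of both libraries, and the knockout T cell-like value of Ccl4 comes mostly from 1 cell.

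Between the libraries, Ccl3, Ccl4 and Xcl1 were lower and Ccl5 was higher in the knockout NK gate. Log2 ratios of knockout over control were -1.06 for Ccl4 (interval -1.10 to -1.02), -0.95 for Xcl1 (-0.99 to -0.91), -0.68 for Ccl3 (-0.72 to -0.63) and 0.36 for Ccl5 (0.358 to 0.366). With 0.32 as the bound, 3 of the 4 genes were lower and 1 higher. Of the 7337 measured genes, 29.2% were lower and 14.8% higher by as much (44% in either direction), so a difference of this size is common between these libraries. The share of genes at or below each was 1.73% for Ccl4, 2.60% for Xcl1, 9.54% for Ccl3 and 88.1% for Ccl5. After subtraction of the median of 300 genes of like transcript length, Ccl5 came to 0.16, inside the bound, and the other genes to -1.24, -1.14 and -0.86.

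**Figure D5:**
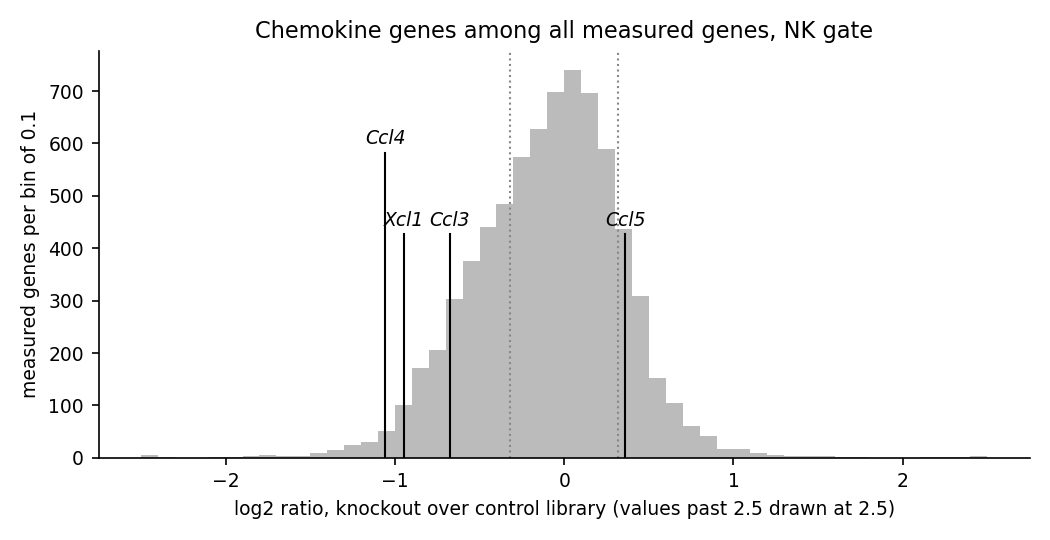
Number of measured genes by log2 ratio of the knockout over the control library in the NK gate; dotted lines mark 0.32 on both sides and black lines the 4 chemokine genes. Ccl4 (-1.06), Xcl1 (-0.95) and Ccl3 (-0.68) lie in the lower tail and Ccl5 (0.36) just past the upper line.

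For the sparse genes the difference was seen mainly as fewer cells with a UMI. A lower level in every cell would also lower that share, so the share alone does not separate the 2 forms. In cells thinned to 2000 UMIs, the Fano factor and the richest cell of each sparse gene were higher in the knockout library. For Ccl4 they were 18.5 against 11.3 and 133 against 92 UMIs. Cells with 10 or more UMIs over the 3 genes were fewer there (0.693% against 2.02%). Which form holds was not tested. In thinned cells the log2 ratio of the share of positive cells was -0.57 for Ccl3, -0.82 for Ccl4 and -0.87 for Xcl1. The log2 ratio of UMIs per positive cell was -0.08, -0.25 and -0.08. For Ccl5 the share was at its ceiling of 99.9% in both libraries, and the log2 ratio of UMIs per positive cell was 0.35.

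Maturation markers differed between the libraries too. In the NK gate the 11 mature markers summed to 3061 CPM in the control and 2198 CPM in the knockout library, and the 10 immature markers to 2183 and 2960 CPM. Single genes weigh on these sums: in the control, Lgals1 gave 1714 CPM of the former and Ctla2a 993.7 CPM of the latter. Counting differences of any size, 8 of 11 mature markers were lower and 7 of 10 immature markers higher in the knockout library. The median log2 ratio of all measured genes was -0.07, and 61.3% of them lay at or below that of Ncr1 (0.05). Lower levels were thus the more common among all measured genes. Their share lower by any size was not counted. The classes were cut within each library, so the same class holds cells of different marker levels: Zeb2 in the least mature class was at 206.3 and 79.0 CPM and Ctla2a at 1324 and 2141 CPM. Within these classes Ccl4 had log2 ratios of -1.20, -1.06 and -0.99 from the least to the most mature class, and Xcl1 of -0.91, -0.94 and -1.12. Ccl3 was lower by more in the least mature class (-1.15) than in the middle (-0.49) and most mature (-0.50) classes; the difference between classes was not tested. Ccl5 had 0.31, 0.32 and 0.42. With the score and its boundaries set over both libraries together, 25.9% of control but 41.9% of knockout cells fell into the least mature class, and 40.8% and 24.7% into the most mature. The ratios from the least to the most mature class were then -1.01, -0.39 and -0.38 for Ccl3, -1.22, -0.86 and -0.96 for Ccl4, -1.05, -1.17 and -1.39 for Xcl1 and 0.35, 0.38 and 0.49 for Ccl5. The sparse genes were thus lower and Ccl5 higher in the knockout library in each class under both ways of cutting. In the ILC1-like gate the ratio was -0.73 for Xcl1 (interval -0.96 to -0.51) and 0.50 for Ccl5 (0.44 to 0.56), and in the T cell-like gate -0.63 for Xcl1 (-1.03 to -0.22) and -0.43 for Ccl5 (-0.50 to -0.36).

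Many, but not all, transcripts induced by activation were lower in the knockout library, as the sparse chemokine genes were. Of 26 such genes 22 were measured: in the knockout NK gate 13 of them (59.1%, against 29.2% of all measured genes) had lower levels, 1 had a higher level (14.8% of all) and 8 were between the bounds. Their median log2 ratio was -0.50 against -0.07 for all measured genes. The 6 largest were Nr4a2 (-1.39), Fosb (-1.38), Rgs1 (-1.17), Fos (-1.14), Tnfaip3 (-1.02) and Cd69 (-0.95), while Ier2 was higher (0.49). Irf8 (-0.16), Dusp2 (0.21) and Nfkbia (0.29), named above among the genes most like the sparse genes, were among the 8 between the bounds. Summed over the list, the level was 4306 CPM in the control and 3761 CPM in the knockout library. Fos and Fosb are also induced by cell handling. Thinned cells held a median of 8 UMIs over this list in the control library and 7 in the knockout.

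Within ranges of these activation UMIs, the sparse genes were still lower in the knockout library up to 19 UMIs. Among cells with 0 to 4 the log2 ratios were -0.64 for Ccl3, -0.83 for Ccl4 and -1.22 for Xcl1. Among cells with 10 to 19 they were -0.37, -0.87 and -0.78. The 292 control and 130 knockout cells with 20 or more (2.83% and 1.45% of cells) had the highest levels: Ccl4 at 2255 and 1854 CPM, Xcl1 at 845.9 and 1100 CPM and Ccl3 at 792.8 and 873.1 CPM. There the log2 ratios were -0.28 for Ccl4 (interval -0.44 to -0.13), 0.38 for Xcl1 (0.16 to 0.59) and 0.14 for Ccl3 (-0.10 to 0.37). The share of these cells with a UMI was lower in the knockout library for all of these genes. It was 28.5% against 47.6% for Ccl4, 30% against 38.7% for Xcl1 and 35.4% against 39% for Ccl3. The weight of single rich cells in these levels was not tested. Ccl5 stayed between 0.33 and 0.41 in every range. The part of activation, of the handling of the cells or of the depth of the libraries in these differences was not tested, and with 1 library per genotype the genotype and the library cannot be told apart.

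Xcr1, the receptor of Xcl1, and most fellow ligands were nearly absent from these cells. Xcr1 had 0 UMIs in both NK gates, and the scavenging receptor gene Ackr2 had 0 and 4. Of 28 other chemokine genes on the list, 2 were measured, Ccl25 (17.6 and 21.1 CPM, log2 ratio 0.26) and Ccl27a (9.51 and 16.1 CPM, 0.76). Cxcl10, an interferon-induced chemokine gene named here after its values were seen, fell short of that level at 2.56 and 13.4 CPM, from 170 and 518 UMIs.

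Of 13 cytokine genes 6 were measured: Ltb was higher (0.52), and Ifng (-0.26), Fasl (0.24), Flt3l (0.22), Il16 (0.13) and Tgfb1 (-0.01) lay between the bounds. Ifng, the interferon gamma gene, was thus lower by less than any of the sparse chemokine genes, from 112 to 93.2 CPM. Of 18 transcription factor genes tied to chemokine genes 17 were measured, with a median log2 ratio of -0.23. The 5 lower ones make 29.4%, the share among all measured genes (29.2%), so the count says nothing of the list; 1 was higher. Lower were Creb1 (-0.80), Rel (-0.56), Nfatc2 (-0.41), Tbx21 (-0.40), which encodes T-bet, and Nfkb1 (-0.38). Klf13, whose protein is known as an activator of Ccl5 in T cells, was higher (0.33), at 198.4 and 249.7 CPM.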

How the data were processed

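Per the labels, spleen cells were sorted and run on the 10x Single Cell 3' v2 kit. The submitters' processing notes name STAR, Cell Ranger 3.0.0, Seurat and GRCm39; use of strand in counting and the order of steps are not given in the sources used here. The deposited values are raw UMI counts per gene and cell, as the authors' matrices hold them. Barcodes under 500 genes or over 10% mitochondrial UMIs were left out. No doublet caller was used; gates left out cells with several markers of another lineage. Levels are summed UMIs scaled to a common total over the cells of the gate or class (CPM). Genes with a mean of at least 10 CPM over the libraries, in the NK gate, count as measured. Ratios carry exact binomial counting intervals and levels exact Poisson intervals. A log2 ratio of 0.32 served as bound of size. Python 3.11.15, numpy 2.4.6, scipy 1.17.1 and Biopython 1.88 were used. Ratios were tested on simulated data for 7337 genes of the knockout and control comparison. Of 100 genes changed 1.5-fold and of 100 changed 2-fold, 100% were recovered. Among genes left unchanged, the interval covered the simulated ratio in 95.2%. This bears on counting error only, because the intervals take in no spread between cells. In cells thinned to 2000 UMIs that spread was wide for the 4 chemokine genes. Their Fano factors ran from 3.28 (Ccl3, control) to 18.5 (Ccl4, knockout). Coverage for counts clumped in this way was not tested.

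The genes described, the lists and the rules were chosen with earlier results of these data known. Named were the 4 chemokine genes, every measured gene of the receptor, chemokine and cytokine lists except 1 that is not reported here, the 6 largest differences of the activation and of the transcription factor lists, and the 6 genes most like each chemokine gene.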

Additional observations from a re-analysis of the deposited data

Results flagged for a closer look

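Knockout-over-control ratios pointed opposite ways in different gates for 2 genes, and the difference between gates was not tested. Ccl4 had a log2 ratio of -1.06 in the NK gate and 2.52 in the T cell-like gate; without the richest T cell-like cell of each library the latter was 0.33, with an interval from -1.28 to 2.19. Ccl5 had a log2 ratio of 0.36 in the NK gate and -0.43 in the T cell-like gate, and -0.41 without the richest cells.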

How the results depend on the processing

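None of the maturation or NK-gate knockout-over-control ratios changed sign under the alternatives given here. Knockout-over-control log2 ratios moved past their counting interval as follows. With median-of-ratios scaling they were -0.61 (Ccl3), -0.99 (Ccl4), 0.43 (Ccl5) and -0.88 (Xcl1). After length adjustment they were -0.86, -1.24, 0.16 and -1.14. Without the richest 5% of cells, which are picked on the counts compared, they were -0.83 (Ccl3), -1.11 (Ccl4) and -1.20 (Xcl1). The stricter cell filter gave -1.003 for Ccl4 and 0.36 for Ccl5, and the stricter NK gate 0.34 for Ccl5 and -0.78 for Xcl1. Thinning gave 0.35 and the mean of per-cell CPM 0.35 for Ccl5. For the most over the least mature class, the summed-UMI score gave 0.23 for Ccl5 and -0.83 for Xcl1 in the control and 0.87 (Ccl3), 0.94 (Ccl4), 0.38 (Ccl5) and -1.18 (Xcl1) in the knockout library. A score without Itgam and Cd27 gave 0.28 and 0.40 for Ccl5. Thinning to 3000 UMIs gave 0.36 for Ccl5 in the control and 0.91 (Ccl3), 0.94 (Ccl4) and 0.47 (Ccl5) in the knockout library, and the stricter cell filter 0.39 for Ccl5 in the knockout library. Of the shares by gate, co-detection ratios and shares of all genes past the bound, 19 moved past their interval and 29 did not. Chosen after seeing the data were the values without the richest cells, the activation ranges, the splits by NK transcripts and the classes set over both libraries. The causes were not tested. No paired analysis was possible because each genotype has 1 library. Depth limits the small gates, whose sparse genes rest on 7 to 356 UMIs.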
